A study of Drosophila melanogaster with 2 samples.

Results

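Of 3077 CLAMP peaks in the authors' optimal set from Drosophila embryos, 238 (7.73%, exact binomial 95% interval 6.82 to 8.74%) had their summit in the protein-coding part of an exon, away from any annotated promoter. A peak was counted as a coding-exon peak when its summit lay over 500 bp from every annotated transcription start site (TSS) of a protein-coding or ncRNA gene, outside every annotated 5' UTR and inside an annotated coding segment. The other 2839 peaks lay mostly at promoters (1086), in introns (1128) and between genes (452). Coding sequence that met the same conditions made up 13.8% of the assembled arms. Chromatin came from whole embryos aged 0 to 24 h, male and female pooled, of a transgenic line that stably expresses CG1832, the CLAMP protein, with GFP at its C terminus. It was sonicated to 200 to 800 bp and precipitated with an antibody against GFP. The design was a single group of 2 biological replicates, which the labels number 4 and 2, with 1 control file. Every embryo analysed carried the tagged protein, all cell types of the embryo were mixed, and no untagged line was analysed here.

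CLAMP is a zinc-finger protein that binds GA-rich repeats, on the male X chromosome as an early step of dosage compensation and at many sites on all chromosomes, the histone gene locus among them. A summit inside a coding exon lies in DNA that must also encode protein, and fly coding sequence is richer in G and C than introns and intergenic DNA. The signal of a peak is the enrichment that the authors' peak caller gave it. Each replicate has a list of 30000 regions, weak background regions included, and ranks run from 1 for the strongest region of a list.

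The sequences show the contrast that runs through the peaks: a few summits had a GA repeat within 100 bp, and most, weak and strong, did not. Each is 30 bases of the dm6 genome, read 5′ to 3′ on the strand of the host gene. Within those 30 bases, capitals mark the longest unbroken alternation of G and A (or of C and T, the same repeat on the other strand). The first 5 are the repeats of peaks that held a run of 8 bp or more within 100 bp of the summit, centred on the run. They are chrX:11703245-11703274 (plus strand) for PhKgamma, chrX:15483339-15483368 (plus) for CG6340, chrX:9672327-9672356 (minus) for nej, chr3L:7869823-7869852 (plus) for CG32365 and chr3R:11629598-11629627 (plus) for CG14712. Of these 5 stretches, only that of CG6340 takes in the summit. The next 3 are centred on the summits of the strongest coding-exon peaks shown, chr3L:11586946-11586975 (minus) for rt, chrX:11681896-11681925 (plus) for bif and chrX:13670552-13670581 (plus) for CG15760. At rt the longest run within 100 bp of the summit was 7 bp, more than its stretch shows. The last 2 are summits among the lowest signals, chrX:13826919-13826948 (minus) for jub and chr3R:30044451-30044480 (plus) for Sry-delta.
PhKgamma: ctctctccCTCTCTCTCTCTCTgtctctct
CG6340: gcgcgagcggGAGAGAGAGAagacaaagcc
nej: ccatataTCTCTCTCTCTCTCTttctcgta
CG32365: caggaatcgctAGAGAGAGAcaacgaacag
CG14712: gagcagctttcGAGAGAGAatcgacccata
rt: tccgatcgttcgcgctccCTCTCacgctcg
bif: aacaccaataccaaagcagcgatcGAGttt
CG15760: tgagaaagatgtggctccgtccCTCTCcct
jub: tgcAGgccatgggcaagtcgtatcatccgg
Sry-delta: catcacacgctcattcacaagGAGAaccgc

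Coding-exon peaks were the weak end of the optimal set. Their median signal was 134 (quartiles 128 and 146), against 295 (quartiles 177 and 616) for the other optimal peaks, and the lowest signal in the set was 123. Of the 238, 223 ranked over 2000 and 189 had a signal of at most 150. Only 8 (3.36%) lay above the median signal of the whole set, against 1530 of 2839 other peaks (53.9%; odds ratio 0.0298, 95% interval 0.0127 to 0.06; two-sided Fisher's exact test, adjusted p = 1.31e-60). This was the lowest median of any place: median signals were 360 at promoters, 269 in introns and 222 in 3' UTRs. The p-values treat peaks as units, and compare peaks within these 2 libraries; they are adjusted by the Benjamini-Hochberg method over 21 tests, 9 of them added after the data had been seen.

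**Figure D1:**
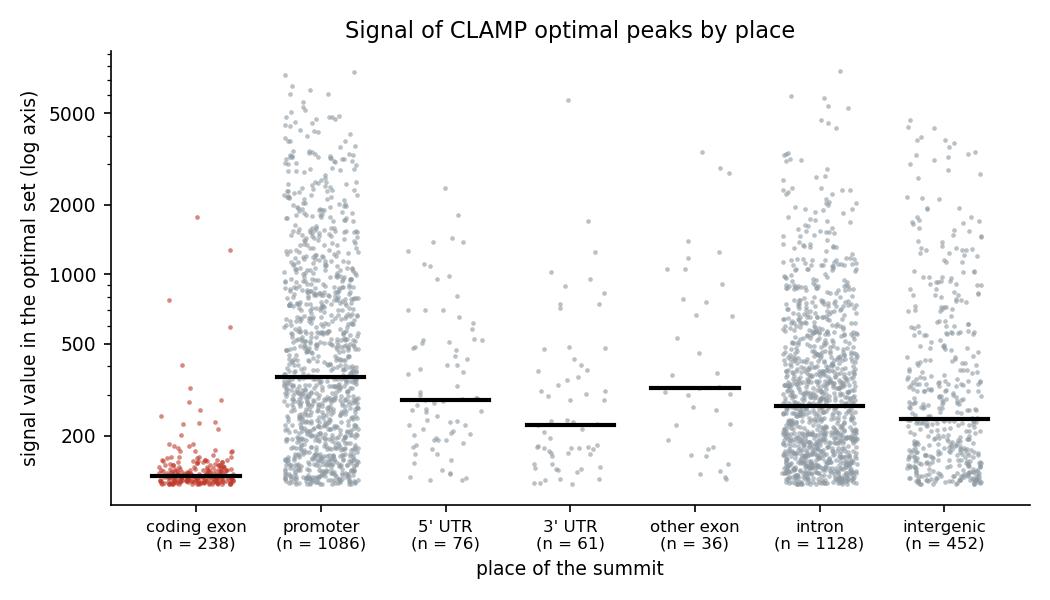
Signal value of each optimal peak (log axis) by the place of its summit; each point is 1 peak and the black bar is the median. The 238 coding-exon peaks gather at the lower edge, with a median of 134, and 15 of them exceed 200.

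The strongest coding-exon peaks lay in genes of unlike roles. The peak in Sema2a, which encodes a secreted semaphorin that guides axons, had a signal of 1778 and rank 188, in coding exon 1 of 14. It stood high in both replicates' own lists, with signal 1305 and rank 189 in replicate 4 and signal 452 and rank 214 in replicate 2. The peak in rt (rotated abdomen), a protein O-mannosyltransferase, had a signal of 1276 and rank 295, with rank 258 in replicate 4 and 500 in replicate 2. Usp15-31, a ubiquitin-specific protease, followed with 777, at rank 588 in replicate 4 and 451 in replicate 2. The peak in bif (bifocal), a cytoskeletal protein of photoreceptors, had 592, at rank 852 in replicate 4 and 484 in replicate 2. These 4 were the only coding-exon peaks among the first 1000 of the optimal set, and each was among the first 1000 in both replicates' lists. The peaks in rt and bif lay wholly within the coding segment of the summit, while those in Sema2a and Usp15-31 reached beyond it. In Usp15-31 the summit, at position 24744270, stood at the edge of a segment that starts at 24744267. Coding-exon peaks that lay whole in a coding segment were 3.61% of the optimal set, against 7.73% by the summit alone.

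A further 11 peaks had signals of 201 to 403. CG15760 had 403 and PhKgamma, the catalytic subunit of phosphorylase kinase, had 323. They were followed by CG33229 (286), Stt3A (280), a catalytic subunit of the oligosaccharyltransferase, the homeodomain factor gene otp (259), Remo (243), the protein kinase gene Hipk (228), Gadd45 (227), a stress-response gene, CG6340 (224), Gpdh1 (214), which encodes glycerol-3-phosphate dehydrogenase, and CG7069 (201). These 15 were less GC-rich than the rest, with a median GC content within 100 bp of 53.7% against 60.2% for the other 223, and 6 of the 15 were on X, against 20 of the 223. No test is given for these splits, since signal chose the peaks.

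The replicates ranked coding exons very differently. Of the 3077 strongest regions of each list, 499 (16.2%) were in coding exons in replicate 4, against 18 (0.585%) in replicate 2 (odds ratio 32.9, 95% interval 20.5 to 56.1; two-sided Fisher's exact test, adjusted p = 1.02e-130). At the top of the lists the shares were close. Coding exons held 2 of the first 300 regions of replicate 4 and 1 of the first 300 of replicate 2, and over the first 1000 the two-sided Fisher's exact test did not pass (unadjusted p = 0.753). From rank 3078 to 10000 coding exons took 45.6% of replicate 4's regions and 14.8% of replicate 2's. Of the 499 coding-exon regions of replicate 4, 169 (33.9%) had a region of replicate 2's list within 200 bp and 20 were among its strongest. Of the 18 of replicate 2, 11 were found in replicate 4's list, and 9 were on X. The same shares over all strongest regions of each list are not given here, so these counts do not set coding exons apart.

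**Figure D2:**
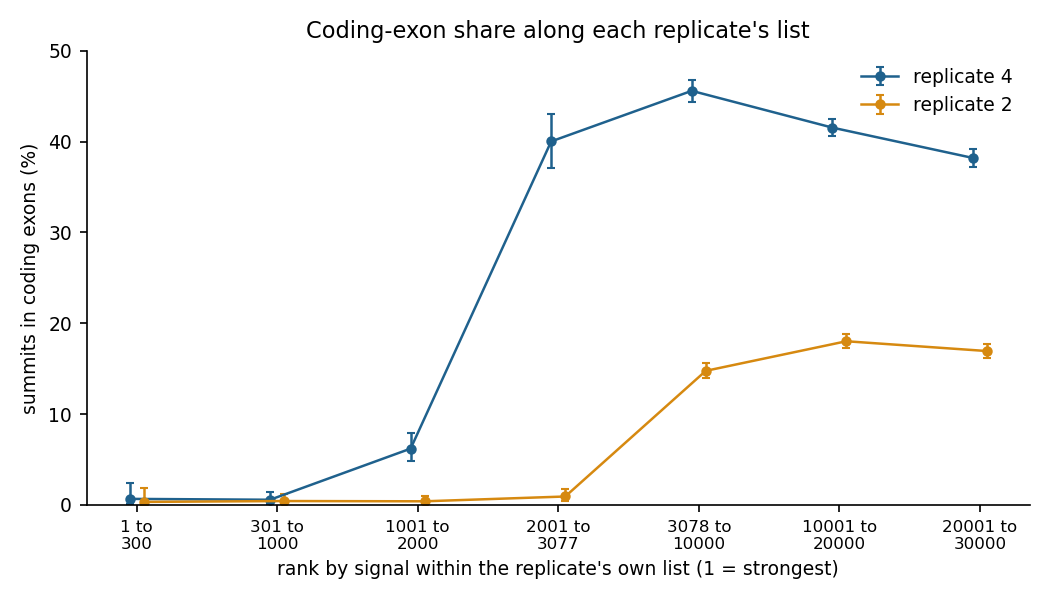
Share of summits in coding exons (%) by rank within each replicate's own list; bars are exact binomial 95% intervals, which cover counting error only. In the bin from rank 3078 to 10000 replicate 4 has 45.6% and replicate 2 has 14.8%.

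The 238 optimal peaks were then looked up in each replicate's list. All 3077 optimal peaks were the 3077 strongest of the list called on both replicates together, and 619 of them, 100 of the coding-exon peaks included, were not found in both replicates' own lists. Over peaks found in both lists, the signal in the optimal set was close to the sum of the replicates' own signals, with a median ratio of 1.04 for coding-exon peaks and 1.00 for other peaks. Replicate 4 gave a median of 80.6% of that sum at coding-exon peaks (quartiles 76.4 and 84.2%), against 71.8% at other peaks (quartiles 64.6 and 76.4%). A weak peak could thus enter the optimal set largely through its signal in replicate 4, and the counts of coding-exon peaks in replicate 4 against replicate 2 are given as a description, with no test. No source used here says whether signals were scaled to sequencing depth.

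Replicate 4's list held a region within 200 bp for 210 of them (88.2%), and replicate 2's list for 160 (67.2%), where 85.4% and 93.9% of all optimal peaks were found. In all, 138 were found in both lists, 72 in replicate 4 only, 22 in replicate 2 only and 6 in neither. The share found in replicate 4 did not pass the test against the other optimal peaks (88.2% against 85.2%; odds ratio 1.30, 95% interval 0.862 to 2.03). In replicate 2 it was lower, 67.2% against 96.2% (odds ratio 0.0821, 95% interval 0.0581 to 0.116; two-sided Fisher's exact test, adjusted p = 3.08e-41). The optimal set holds the strongest summed signals, and coding-exon peaks drew more of theirs from replicate 4. The test in replicate 2 cannot be read apart from that entry. Coding-exon peaks were also weaker (median signal 134 against 295), which it leaves out of account.

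Among the strongest 3077 regions the gap was wider. These included 185 coding-exon peaks (77.7%) in replicate 4 and 21 (8.82%) in replicate 2, where 79.0% and 74.2% of all optimal peaks were included. The other optimal peaks were included about as often in either replicate, 79.1% and 79.7%. The difference between coding-exon and other peaks was again in replicate 2 (odds ratio 0.0247, 95% interval 0.0149 to 0.0392; two-sided Fisher's exact test, adjusted p = 2.11e-110), while in replicate 4 the odds ratio was 0.920 (95% interval 0.664 to 1.29). The same limits of entry through replicate 4 and of weaker signal hold for the test in replicate 2. Of the 138 peaks found in both lists, 132 (95.7%) had the better rank in replicate 4, against 1655 of 2320 other peaks (71.3%). This count too is a description with no test, since peaks that entered largely through replicate 4's signal would rank better there. Over the coding-exon peaks found in each list, the median rank was 2258 in replicate 4 and 7230 in replicate 2.

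**Figure D3:**
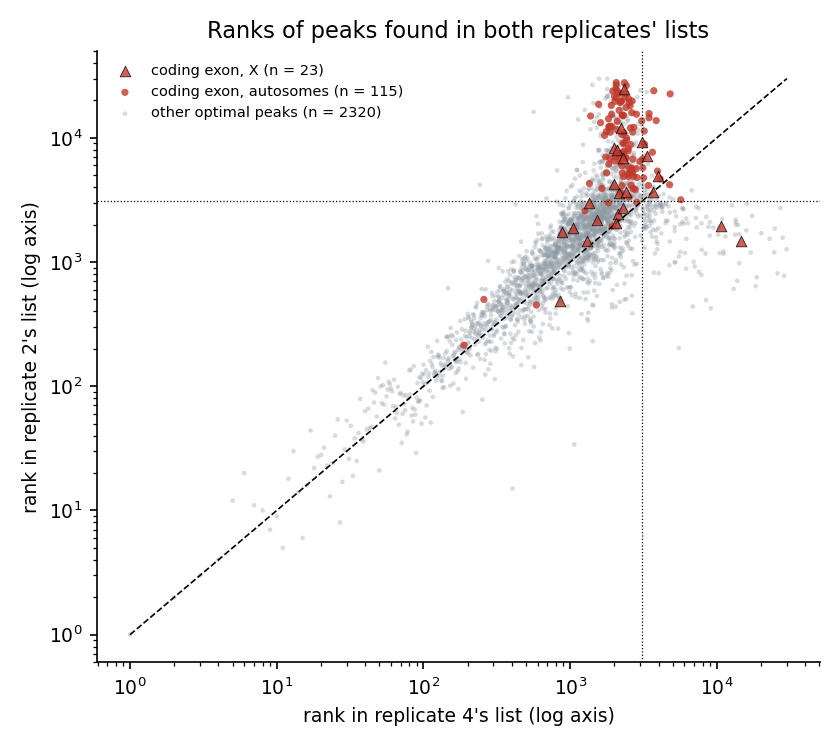
Rank in replicate 2's list against rank in replicate 4's list (both log axes, 1 = strongest) for the 2458 optimal peaks found in both; the dashed line marks equal ranks and the dotted lines rank 3077. Most of the autosomal coding-exon peaks lie above the dashed line, within the strongest of replicate 4 and outside those of replicate 2, and the X-linked ones spread further down.

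A gap in replicate 2 was also seen among weak peaks, a split that cannot separate it from entry through replicate 4. Of the 1026 weakest optimal peaks, 223 were in coding exons. Among replicate 2's strongest regions were 9 of these 223 coding-exon peaks (4.04%), against 336 of 803 other peaks (41.8%; odds ratio 0.0586, 95% interval 0.0260 to 0.116; two-sided Fisher's exact test, adjusted p = 7.08e-32). Replicate 4's strongest held 171 of 223 (76.7%) and 489 of 803 (60.9%) of these weak peaks. The 2 counts are not separate results: in a narrow band of the summed signal, peaks lower in replicate 2 are higher in replicate 4. Entry to the optimal set went by a signal close to that sum. The test in replicate 2 thus cannot be read apart from entry through replicate 4. The gap in replicate 2 was smaller among weak peaks of high GC content; whether the 2 gaps differ was not tested. With GC over 55%, the counts among replicate 2's strongest were 3 of 195 coding-exon peaks (1.54%) and 17 of 215 other peaks (7.91%; odds ratio 0.183, 95% interval 0.0338 to 0.646; two-sided Fisher's exact test, adjusted p = 0.00381). Coding-exon peaks were still weaker and richer in GC there, with median signal 133 against 142 and median GC 61.2% against 57.7%. The limit of entry through replicate 4 holds there too. In that stratum replicate 2's whole list held 64.6% of coding-exon and 70.7% of other peaks, which did not pass the two-sided Fisher's exact test (odds ratio 0.757, unadjusted p = 0.205).

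Coding-exon peaks were GC-rich even for coding sequence. Their median GC content within 100 bp of the summit was 60.2% (quartiles 56.7 and 63.7%), against 51.2% at other optimal peaks and 52.7% over 91520 windows of 201 bp tiled across the eligible coding sequence. GC content was over 50% at 228 of the 238 (95.8%), where 60.9% of all optimal peaks had it, against 1646 of 2839 other peaks (58.0%; odds ratio 16.5, 95% interval 8.77 to 35.1; two-sided Fisher's exact test, adjusted p = 3.72e-38). The number of peaks per 1000 coding windows climbed with each GC class, at 0.131 for GC up to 45%, 0.446 up to 50%, 1.01 up to 55%, 3.48 up to 60%, 9.46 up to 65% and 23.4 above. Of the peaks, 52.9% exceeded 60% GC, and of the coding windows 11.7% did. In each replicate's own strongest regions the picture differed. The 499 coding-exon regions of replicate 4 had a median of 60.2% GC, and more of them exceeded 50% than did the other regions there (odds ratio 23.3). The 18 of replicate 2 had a median of 49.3%, and the same comparison did not pass the two-sided Fisher's exact test (odds ratio 1.39, unadjusted p = 0.474). How GC content entered these libraries was not tested.

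**Figure D4:**
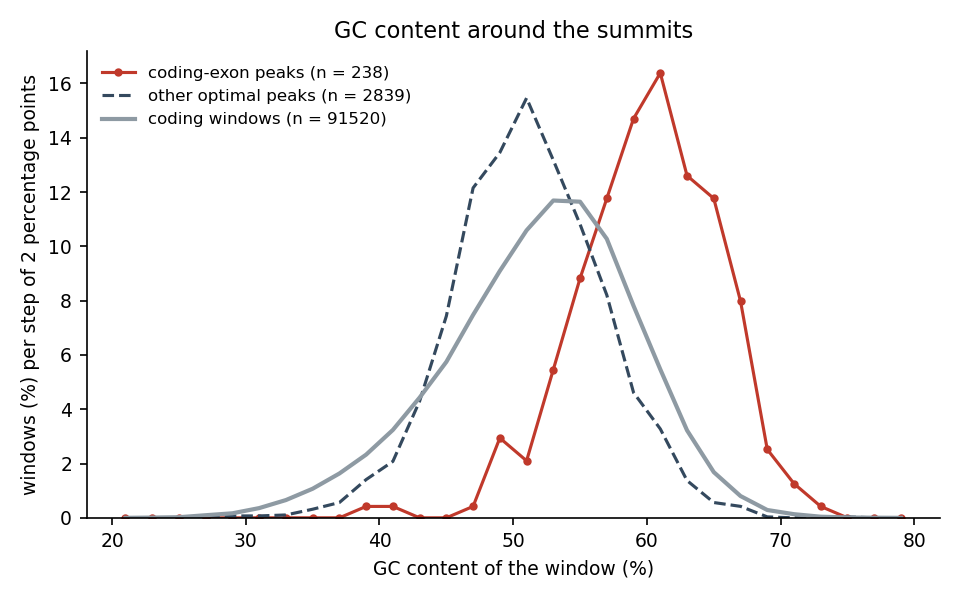
GC content (%) of the 201 bp around each summit, in steps of 2 percentage points, for 238 coding-exon peaks, 2839 other optimal peaks and 91520 windows over eligible coding sequence. The coding-exon peaks centre on 60.2%, to the right of both other curves.

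GA repeats, the sequence CLAMP is known to bind, were rare at these peaks. A run of 8 bp or more within 100 bp of the summit (letters GAGAGAGA or AGAGAGAG, or CTCTCTCT or TCTCTCTC on the other strand) was present at 7 of 238 (2.94%), where 34.4% of all optimal peaks had one, against 1051 of 2839 other peaks (37.0%; odds ratio 0.0516, 95% interval 0.0204 to 0.109; two-sided Fisher's exact test, adjusted p = 1.59e-34). Of the coding windows, 0.498% held such a run. The equal window 1000 bp away from the summit held one at 1 of the 238 (exact binomial test on 8 discordant peaks, two-sided, adjusted p = 0.0869, which does not pass).

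The 7 hosts were PhKgamma, nej, which encodes the acetyltransferase CBP, Him, an inhibitor of muscle differentiation, CG6340, CG32365, the fucosyltransferase gene FucTC and CG14712. The longest runs were 15 bp at nej and Him and 14 bp at PhKgamma. In CG6340, CG32365 and CG14712 the run itself was coding sequence. In PhKgamma and nej it lay in the neighbouring intron, 36 and 34 bp from the summit, and in FucTC and Him it lay in the 3' UTR, 90 and 82 bp away. Of these 7 peaks, PhKgamma, CG6340 and FucTC were among the strongest of replicate 2, at ranks 1879, 2164 and 1153.

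In the optimal set, coding-exon peaks were scarce on X. The 26 on X made up 10.9% of them, against 26.9% of the other optimal peaks (764 of 2839; odds ratio 0.333, 95% interval 0.211 to 0.507; two-sided Fisher's exact test, adjusted p = 1.48e-08). The arms 2L, 2R, 3L and 3R held 46, 54, 58 and 54, and chromosome 4 held 0 of its 6 optimal peaks. Per Mb of eligible coding sequence there were 7.94 on X and 14.0 on the autosomes, although optimal peaks of all kinds were denser on X, at 33.6 per Mb of arm against 20.7. The median GC content of coding windows was 54.7% on X and 52.2% on the autosomes. In replicate 2's strongest regions alone the direction was the opposite, with 9 of 18 coding-exon regions on X (odds ratio 2.67, unadjusted p = 0.0583 by the two-sided Fisher's exact test, which does not pass). Of the 499 coding-exon regions among replicate 4's strongest, 8.42% were on X. Coding-exon peaks drew more of their signal from replicate 4, so the test over the optimal set cannot be read apart from that entry.

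The X-linked peaks differed from the autosomal ones in the replicates and in sequence. Among replicate 2's strongest regions were 12 of 26 on X (46.2%) and 9 of 212 on autosomes (4.25%; odds ratio 18.8, 95% interval 6.15 to 60.6; two-sided Fisher's exact test, adjusted p = 6.08e-08). Among replicate 4's strongest were 19 of 26 (73.1%) and 166 of 212 (78.3%), with an odds ratio of 0.753 (95% interval 0.281 to 2.25). Over peaks found in both lists, replicate 4 gave a median of 73.9% of the summed signal on X and 81.2% on autosomes. The test in replicate 2 thus cannot be read apart from entry through replicate 4. GA runs were present at 5 of 26 X-linked and 2 of 212 autosomal peaks (odds ratio 24.3, 95% interval 3.70 to 269; two-sided Fisher's exact test, adjusted p = 0.000313). The other optimal peaks also held more of them on X, at 333 of 764 (43.6%) against 718 of 2075 on autosomes (34.6%). The median GC content was 54.0% on X and 60.2% on autosomes, and the share over 60% GC did not pass the test (34.6% against 55.2%, adjusted p = 0.0796 by Fisher's exact test). These comparisons were chosen after the data had been seen.

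**Figure D5:**
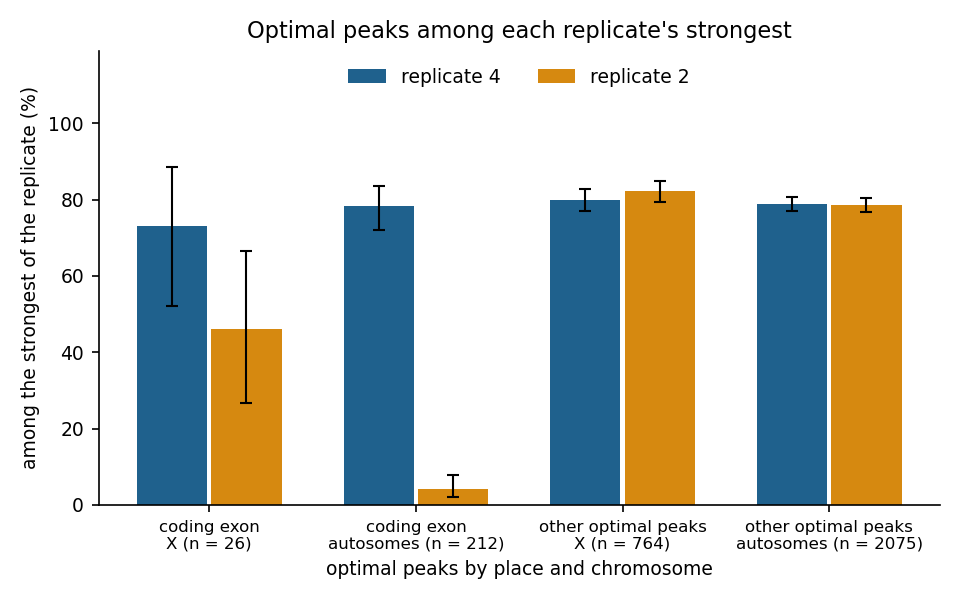
Share of optimal peaks among the 3077 strongest regions of replicate 4 and of replicate 2 (%), for coding-exon and other peaks on X and on autosomes; bars start at 0 and lines are exact binomial 95% intervals. Replicate 2 holds 46.2% of X-linked and 4.25% of autosomal coding-exon peaks, and 82.3% and 78.7% of the other peaks on X and on autosomes.

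Only 16 coding-exon peaks were among the strongest regions of both replicates, 9 of them on X. The 10 of highest signal were in Sema2a, rt, Usp15-31, bif, CG15760, PhKgamma, Stt3A, otp, Remo and CG6340, with signals of 224 to 1778. Of all 3077 optimal peaks, 1817 were among the strongest of both, 615 of replicate 4 only, 466 of replicate 2 only and 179 of neither. Of the coding-exon peaks, a further 169 were among the strongest of replicate 4 only, 5 of replicate 2 only and 48 of neither. The 5 were in CG33229, CG15599, FucTC, sws and Cyp28d2 (CG15599 and sws are named after their values were seen), at ranks 846 to 2391 in replicate 2. In replicate 4, CG15599 had rank 14603 and sws 10709, and the other 3 had no region within 200 bp.

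At the lower end of the set, Pgi (glucose-6-phosphate isomerase) had 122.97, with signal 100.1 in replicate 4 and no region in replicate 2. Sry-delta, a zinc-finger protein gene, had 122.99, with rank 3445 in replicate 4 and 14497 in replicate 2. The gene jub, encoding the LIM protein Ajuba of the Hippo pathway, had 123.00 and was at rank 2286 in replicate 4 and 2744 in replicate 2, within the strongest of both.

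The 238 summits fell in 230 host genes, so almost every gene held 1. There were 8 genes with 2 peaks: Adk3 (an adenylate kinase), B4, Cyp28d2 (a cytochrome P450), Mkp3 (a phosphatase of the MAP kinase ERK), bark (a cell junction protein), bowl and jing (zinc-finger proteins) and nst (an enzyme of amino sugar synthesis). Their 16 signals ran from 124 to 152, and 1 of the 16, in B4, was among the strongest of both replicates. One summit lay in coding sequence of both mod(mdg4) and pre-mod(mdg4)-E, and 13 summits had another annotated gene on top of the host, so which gene the site belongs to is uncertain there.

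Within genes, summits lay in shorter segments and closer to a TSS than the windows over eligible coding sequence, which leave out coding sequence within 500 bp of a TSS as the rule for the peaks does. The coding segment at the summit had a median length of 579 bp, against 822 bp over the coding windows, and 17.2% of summits against 41.9% of windows lay in segments over 1000 bp. The median distance to a TSS was 1076 bp, against 1907 bp over the windows, with 45.4% and 23.3% within 1000 bp. The 23 coding-exon peaks 503 to 597 bp from a TSS had a median signal of 128, and 29 summits that fell just short of the distance, in coding sequence 405 to 500 bp from a TSS, had 136. The nearest other optimal summit was a median of 9007 bp away, against 4574 bp for other optimal peaks. Peak width gave no further view: 97.9% of coding-exon peaks had the common width of 410 bp, as did 98.9% of the 803 other peaks among the 1026 weakest.

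Counts by gene list were small, and the lists do not take in every gene of a class. The homeodomain factor gene otp and E(Pc) (Enhancer of Polycomb), among others, hosted peaks but were on none of the lists. The counts are thus of listed genes and can fall short of a whole class. Of 12288 protein-coding genes with eligible coding sequence, 231 (1.88%) hosted a peak. Glycolysis had 3 of 12 genes, Pfk (phosphofructokinase, signal 146), Gapdh1 (glyceraldehyde-3-phosphate dehydrogenase, 139) and Pgi (123). In replicate 4 these had ranks 2843, 2496 and 2493. In replicate 2, Gapdh1 had rank 20709 and the other 2 had no region. The chaperones had 2 of 34, Droj2 (a DnaJ protein, 135) and CCT4 (a chaperonin subunit, 129). There was 1 of 70 cytosolic ribosomal proteins (RpL23A, 131), 1 of 53 translation factors (eIF4E1, the cap-binding protein, 126), 1 of 29 homeobox and segmentation factors (the Hox gene Abd-B, 131), 1 of 26 Polycomb, trithorax and GA-binding genes (tara, 133) and 1 of 23 nuclear and histone-locus proteins (the AT-hook protein gene D1, 155). None was found among 59 genes of the ATP synthase and respiratory chain, 17 of actin and tubulin, 23 of the sarcomere, 15 of the matrix, 102 of the cuticle or 7 of the chorion. Of the peaks in these 10 hosts, 2 had a region in replicate 2's list (Gapdh1 and Abd-B, at ranks 20709 and 24895) and 0 were among its strongest, where 67.2% and 8.82% of all coding-exon peaks did and were.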

How the data were processed

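ChIP-seq peak lists of 1 group with 2 biological replicates were analysed in build dm6. The deposited signal value and score of each region are the authors' own; per the labels and deposited text files, regions were called per replicate against 1 control file, and an irreproducible discovery rate step chose the optimal set. For aligner, caller, threshold and depth scaling: not given in the sources used here. Read depth is unknown, so intervals cover counting error only. The deposited score was not used.

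Summits were placed with the Release 6 genome and BDGP annotation 6.54 of Ensembl release 115. A peak was found in a list when a summit lay within 200 bp, and took the rank of the strongest such region. Tests were two-sided Fisher's exact and exact binomial tests, at 0.05, checked on simulated data (Python 3.11.15, scipy 1.17.1). Peaks are not replicates of a condition. The labels call the replicates biological and say no more of their origin. The coding windows are all eligible windows of 201 bp.

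Genes named were hosts of the 15 highest signals, of 2 peaks, of GA runs, of the 10 highest signals among both replicates' strongest, of up to 3 peaks per gene list and of the 3 lowest signals. Members and lists were chosen with earlier results of these data known.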

Additional observations from a re-analysis of the deposited data

How the results depend on the processing

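Over 69 alternatives of 14 results, 54 kept their direction and their side of the threshold. The coding-exon share of 7.73% was 9.55% with a TSS distance of 250 bp, 4.22% with 1000 bp, 3.61% where the whole peak had to lie in 1 coding segment and 0.520% in the 1538 strongest peaks, and 0.585 to 16.2% from 1 replicate alone. All p-values here are unadjusted and from two-sided exact tests. The odds ratio of replicate 4 over replicate 2 was 2.00 (exact p = 1) over the strongest 300 regions and 1.503 (p = 0.753) over the strongest 1000. For peaks found in replicate 4 the odds ratio was 0.648 with GC over 55% and 1.99 in the 1026 weakest peaks, and for those among its strongest 2.11 in the 1026 weakest, where the narrow band of summed signal ties replicate 4 to replicate 2. In replicate 2 the odds ratio for peaks found was 0.757 (exact p = 0.205) in the 1026 weakest with GC over 55%. From 1 replicate alone the odds ratio was 0.272 to 2.67 for X, 1.39 to 23.3 for GC and 0.0412 to 0.106 for GA runs. With runs of 6 bp, the summit minus the window 1000 bp away was -0.840 percentage points (exact p = 0.871). Restrictions to the weakest peaks or to high GC were chosen after seeing the data. The causes of these changes were not tested, and each restriction left fewer peaks. No pairing of samples between conditions was possible because there is only 1 group. Depth is unknown, and a peak absent from a list of 30000 regions may lie below its end.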
